A study of Mus musculus with 6 samples.

Results

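The CC chemokines are small secreted proteins, named for a pair of adjacent cysteines, that attract leukocytes by binding receptors of the CCR family. Described here are 10 of them (Ccl2, Ccl3, Ccl4, Ccl5, Ccl6, Ccl7, Ccl9, Ccl12, Ccl17 and Ccl22), taken by gene identifier from the 22962 genes of the deposited table, and all 10 have a row. Ccl2, Ccl7 and Ccl12 are ligands of CCR2, the receptor by which monocytes leave the marrow and enter inflamed tissue. Ccl3, Ccl4 and Ccl5 attract T cells, monocytes and macrophages, Ccl6 and Ccl9 are rodent ligands of CCR1, and Ccl17 and Ccl22 are the ligands of CCR4, carried by Th2 and regulatory T cells. Macrophages raise many of these transcripts quickly after a stimulus, through NF-kB and related factors, and several of the proteins are used to follow the entry of monocytes and T cells into the injured lung.

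The libraries came from alveolar macrophages, the resident phagocytes of the air spaces, of C57BL/6 mice 2 weeks after instillation of saline or bleomycin into the trachea. Bleomycin damages DNA and is the usual agent of experimental lung fibrosis, and the labels name no other allele or treatment. Lavage cells were plated for 30 minutes, washed and lysed, so the RNA is that of the cells that adhered, with no sort on surface markers. Each group has 3 libraries, numbered 1, 2 and 3 for saline and 1, 2 and 5 for bleomycin, and values are listed in that order. Nothing in the labels says that they came from separate mice, and p-values therefore measure only how far these libraries lie apart, which may be technical. The labels give no age. Library totals were 27654799 to 37147983 reads. A value below is a normalized read count, the reads of a gene divided by a size factor of its library, and 3 reads have a value of 2.59 to 3.3. Differences are bleomycin minus saline on the log2(value + 1) scale, tested with limma over 13512 genes and adjusted by the Benjamini-Hochberg method, with a threshold of 0.05.

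Markers of alveolar macrophages were abundant in all 6 libraries, with Siglecf, a sialic acid receptor of these cells, at 7228 or more. Of 12 such markers 6 fell and 1 rose, and 13 of the 14 that could be tested from a list for monocytes and the macrophages they give rise to rose. Of all genes tested, 13.7% passed the threshold, 9.76% as rises and 3.9% as falls (1319 and 527 genes, or 1114 and 752 with quantile normalization). The summed level of the monocyte and monocyte-derived markers was 10481, 13154 and 12356 with saline and 154766, 260667 and 285913 with bleomycin. The bleomycin libraries thus stood far above the saline libraries. Apoe made up most of the sum in every bleomycin library, at 112162, 183748 and 203688. Ly6c2 rose but stayed at 89.8, 93.4 and 156 with bleomycin. Vcan was the tested gene of the list that did not pass (limma adjusted p = 0.566). The sum of the alveolar macrophage markers was 775448, 618723 and 717719 with saline and 498442, 423985 and 384300.2 with bleomycin, with the bleomycin libraries lower. Chil3, the largest part of this sum in every library, was 476558, 311298 and 419785 with saline and 264167, 222670 and 179106 with bleomycin. B cell markers summed to 32.6 to 43.5 with saline and 138 to 1153 with bleomycin, fibroblast markers to 35.3 to 321 with saline and 219 to 849 with bleomycin, epithelial markers to 5807 to 6943 with saline and 4411 to 4827 with bleomycin, and endothelial markers to 2103 to 2329 with saline and 2679.6 to 3048 with bleomycin, while those of eosinophils and of mast cells and basophils stayed at 11 or less in every library. Epcam and Cdh1 made up most of the epithelial sum in every library, and Vwf most of the endothelial sum. Epcam was 4871, 4280 and 3983 with saline and 1965, 1154 and 1160 with bleomycin. Of the 7 epithelial markers 1 fell, Epcam, and 4 rose, Sftpc, Sftpb, Krt18 and Krt8, so the lower sum does not stand for most of them. The part of these cell types in the chemokine values was not tested. Neutrophil markers summed to 2567 to 4179.7 with saline and 5734 to 6647 with bleomycin, and among the saline libraries replicate 2 had the highest value for 5 of the 8 with a row, but the lowest for Cxcr2 (264, 179 and 334 with saline and 897, 1099 and 925 with bleomycin) and Mmp8 (1088, 998 and 1536 with saline and 2744, 3383 and 2608 with bleomycin). It stood furthest apart in S100a9 and Lcn2, chosen after their values were seen. S100a9 was 4.9, 503 and 7.42 with saline and 20.7, 56 and 37.1 with bleomycin, and Lcn2 was 14.7, 319 and 8.48 with saline and 62.9, 51.6 and 54.3 with bleomycin, both highest in saline replicate 2.

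Of the 10 CC chemokines, 2 rose after bleomycin, Ccl5 and Ccl22, and 0 fell, which is 20% against the 13.7% of all genes tested. The median log2 difference was 0.54, against -0.01 over all genes tested. Differences were above 0 in 8 of 10, and in 6582 of all 13512 genes tested. At an unadjusted p under 0.05 in the limma test there were 4, Ccl4 and Ccl9 besides these, where 25.9% of all genes tested lay under it. On whole reads recovered from the values, edgeR called 2 of the 10 and DESeq2 2, where they called 13.5% and 17.1% of all genes tested. Bleomycin values lay above every saline value in 4 genes, Ccl4, Ccl5, Ccl12 and Ccl22, where 17.2% of all genes tested did so, and below every saline value in 0, against 13.6%. All 10 passed the filter on low values, Ccl12 with few reads.

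**Figure D1:**
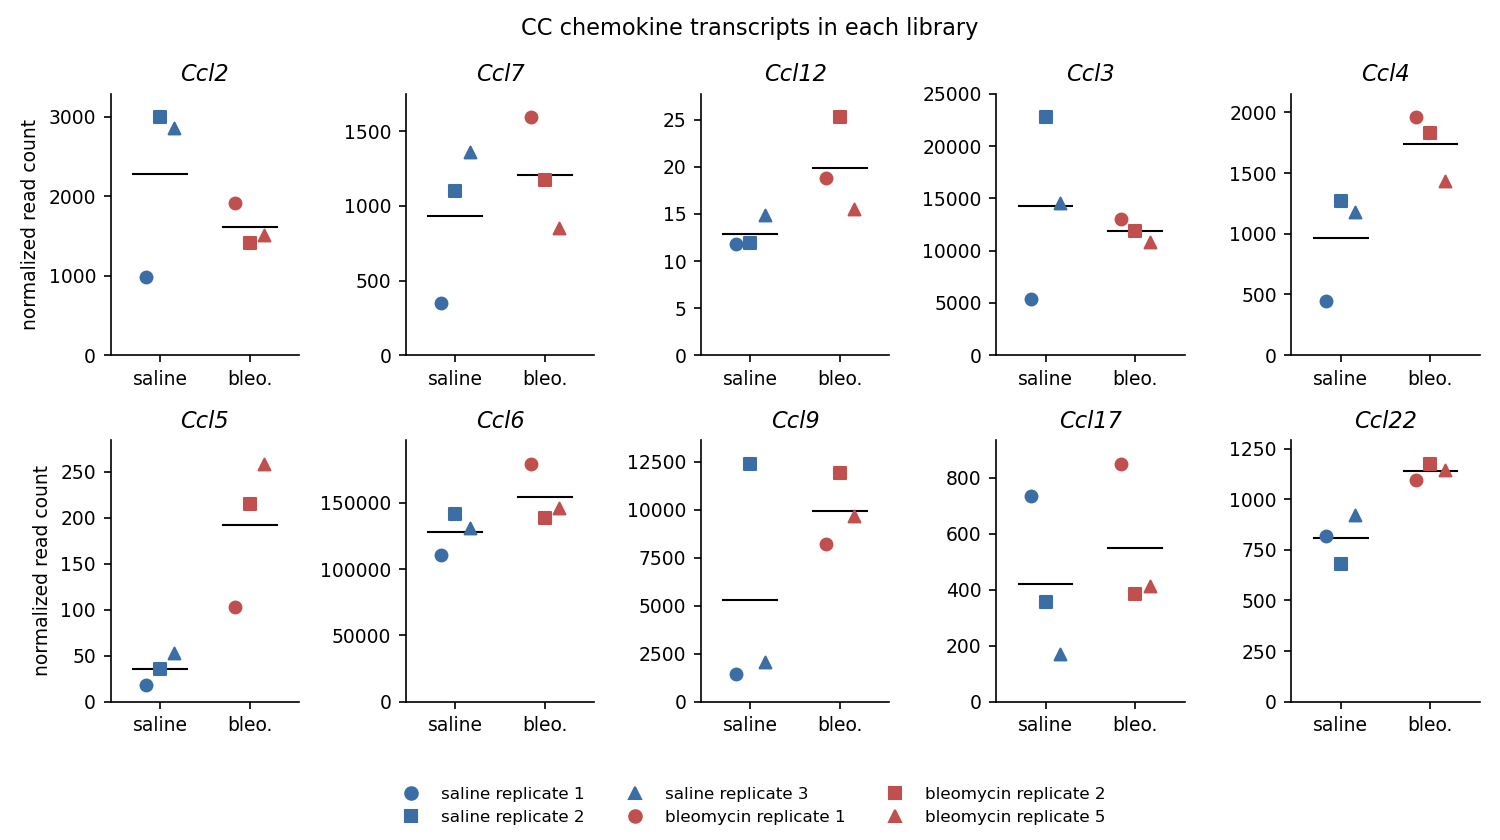
Normalized read counts of the 10 CC chemokines (y axes, each from 0) in the 3 saline (blue) and 3 bleomycin (red) libraries, with symbols for replicates and a line at the group mean. Saline replicate 1 is the lowest saline library for 8 of the 10 genes, and only Ccl4, Ccl5, Ccl12 and Ccl22 have groups that do not overlap.

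The saline libraries differed from each other in most of these genes. The highest saline value was 8.76 times the lowest for Ccl9, 4.37 times for Ccl17, 4.24 times for Ccl3, 3.91 times for Ccl7 and 3.05 times for Ccl2. Among the 8 members with a mean value of at least 300 over the 6 libraries, 5 had such a ratio of at least 3, whereas 1.23% of the 8243 genes at that level did. In the bleomycin libraries 0 of the 8 reached that ratio, against 0.291% of genes at that level, and the median over the 10 members was 1.41 against 3.03 in saline. Saline replicate 1 was the lowest saline library for 8 of the 10 genes, the exceptions being Ccl17 and Ccl22, and it was the lowest for 33.9% of all genes tested. Ccl17 had its highest saline value in that library.

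The genes lie in 3 neighbourhoods of the mouse genome (GRCm38). Ccl2, Ccl7 and Ccl12 share a stretch of 67.8 kb on chromosome 11. Ccl5, Ccl9, Ccl6, Ccl3 and Ccl4 share 139 kb of the same chromosome, 1422 kb further on, and Ccl22 and Ccl17 share 66.4 kb on chromosome 8. No member shares exon positions with another annotated gene of GENCODE M21, from which these coordinates and the exon lengths were taken.

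Ccl6 made up most of the CC chemokine transcript. Per kilobase of exon, its level was 71193 ± 8747 in saline and 86113 ± 12221 in bleomycin libraries (mean ± SD, n = 3, normalized read count per kilobase). Ccl3 came next, at 18587 ± 11359.9 and 15537 ± 1455. In saline the order went on with Ccl2 (2004 ± 989), Ccl9 (1739 ± 2023), Ccl4 (1461 ± 683), Ccl7 (1169 ± 657) and Ccl17 (819 ± 563), each within an SD of the next. Ccl22 (347 ± 52.3), Ccl5 (37 ± 18.4) and Ccl12 (23.9 ± 3.22) were lowest, with Ccl5 and Ccl12 within an SD of each other. In bleomycin libraries Ccl9 (3259 ± 611) and Ccl4 (2638 ± 417) stood ahead of Ccl7 (1507 ± 463), Ccl2 (1419.6 ± 233) and Ccl17 (1069 ± 507). The last 3 lay within an SD of each other, and were followed by Ccl22 (489.8 ± 16.9), Ccl5 (200.4 ± 83.5) and Ccl12 (37 ± 9.23).

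The summed level of the 10 genes per kilobase was 72877, 119499.8 and 99761 with saline and 128594, 103475 and 104739.7 with bleomycin. The groups overlapped, and the mean was 1.15 times higher in bleomycin (exact permutation test, two-sided, p = 0.4, where 3 against 3 libraries cannot give less than 0.1). Ccl6 and Ccl9, which bind CCR1 as Ccl3 and Ccl5 also do, together held a percentage of that sum of 85.2, 69.3 and 74.1 with saline and 79.9, 78.2 and 80.7 with bleomycin. The percentage held by Ccl3, Ccl4 and Ccl5 together was 10.6, 26.5 and 20.9 with saline and 15.6, 17.9 and 15.8 with bleomycin, most of it Ccl3. Both were most spread in saline, where replicate 1 had the largest share of Ccl6 and Ccl9 and replicate 2 the largest share of Ccl3, Ccl4 and Ccl5. The percentage held by the CCR2 ligands was 1.81, 3.37 and 4.26 with saline and 2.89, 2.66 and 2.32 with bleomycin, and that held by the CCR4 ligands was 2.45, 0.827 and 0.727 with saline and 1.65, 1.21 and 1.24 with bleomycin. For each of the 4 shares the bleomycin range lay inside the saline range (exact permutation tests, two-sided, p = 0.6, 0.6, 0.6 and 1 for the CCR2 ligands, for Ccl3, Ccl4 and Ccl5, for Ccl6 and Ccl9 and for the CCR4 ligands). No shift in the make-up of the family was detectable with 3 libraries a group, and the direction of each share turned when 1 saline library was left out (replicate 2 for Ccl3, Ccl4 and Ccl5 and for Ccl6 and Ccl9, replicate 3 for the CCR2 ligands, either for the CCR4 ligands).

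**Figure D2:**
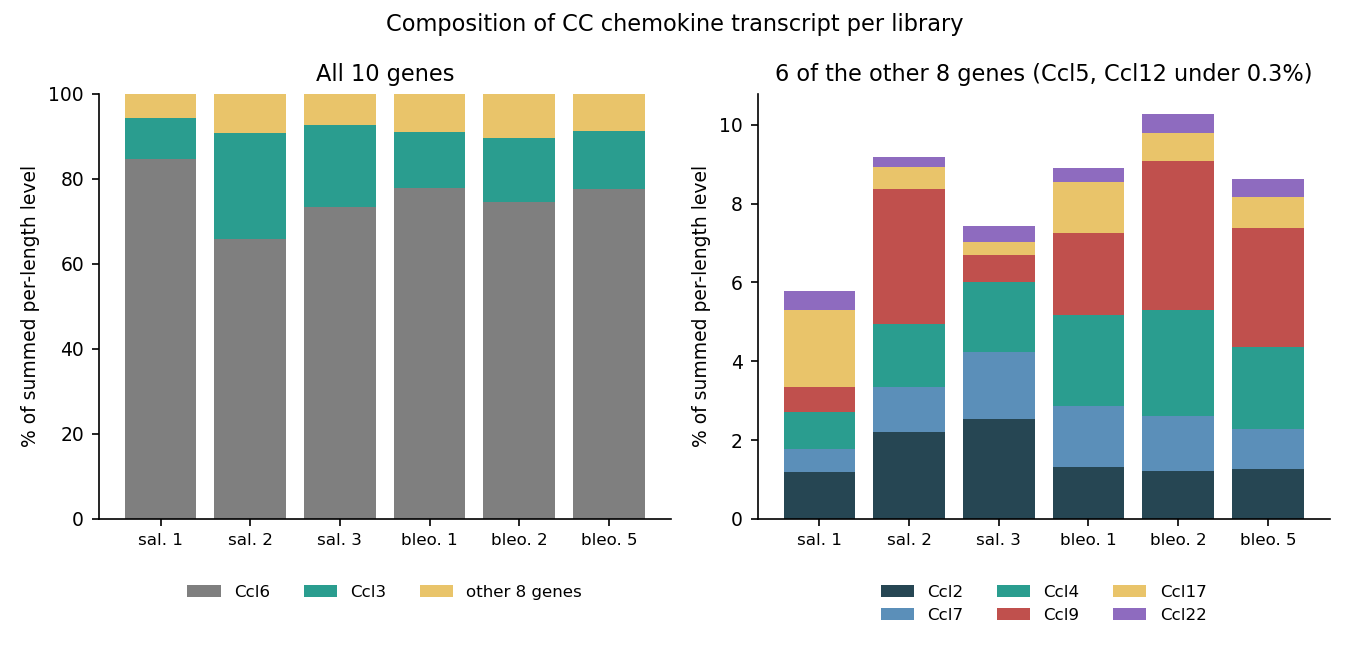
Share of each gene in the summed level per exon length of the 10 CC chemokines, in percent (y axes), for each saline (sal.) and bleomycin (bleo.) library. Ccl6 and Ccl3 take most of every bar at left, and the right panel shows 6 of the other 8 genes, with Ccl9 small in saline replicates 1 and 3 and Ccl17 large in saline replicate 1.

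Ratios of CC chemokines were also taken within each library. Per exon length, the ratio of Ccl2 to Ccl4 was 1.28, 1.37 and 1.41 with saline and 0.567, 0.448 and 0.613 with bleomycin, a narrow range in each group although the highest saline value of Ccl2 was 3.05 times and that of Ccl4 2.84 times the lowest. The ratio of Ccl3 to Ccl4 was 10.4, 15.5 and 10.7 and 5.72, 5.6 and 6.49, and that of Ccl2 to Ccl7 1.99, 1.92 and 1.48 and 0.846, 0.85 and 1.25, listed in the same way. In these pairs, chosen after their values were seen, the groups did not overlap. Of all 45 pairs of members 13 had groups that did not overlap, 7 of them with Ccl5 (exact permutation tests, two-sided, smallest p = 0.1, Benjamini-Hochberg adjusted p = 0.346). That share is below the 35.1% found over all pairs of tested genes.

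Ccl2 (MCP-1; ENSMUSG00000035385, chromosome 11, 82035571 to 82037453, plus strand), the main monocyte attractant, did not rise. It was 983, 2994 and 2864 with saline and 1917, 1415 and 1514 with bleomycin. All 3 bleomycin values lay between saline replicate 1 and the other saline libraries (log2 -0.35 ± 0.38 (SE), limma adjusted p = 0.657, 95% interval -1.22 to 0.53). Without saline replicate 1 Ccl2 passed as a fall (limma, log2 -0.87, adjusted p = 0.0121). Over the 5 other settings that each left out 1 library its limma adjusted p was 0.53 to 0.95.

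Ccl7 (MCP-3; ENSMUSG00000035373, chromosome 11, 82045712 to 82047525, plus strand), a further CCR2 ligand, was 348, 1097 and 1363 with saline and 1594, 1172 and 855 with bleomycin. Its groups overlapped and it did not pass (log2 0.54 ± 0.47 (SE), limma adjusted p = 0.545, 95% interval -0.53 to 1.60), and its sign turned without saline replicate 1 (limma, log2 -0.06, adjusted p = 0.916). Ccl12 (MCP-5; ENSMUSG00000035352, chromosome 11, 82101845 to 82103400, plus strand) was near the lower end of what the libraries can count, with 11 to 14 reads in saline and 18 to 23 in bleomycin libraries. Its values were 11.8, 12 and 14.8 with saline and 18.9, 25.3 and 15.5 with bleomycin. The bleomycin libraries were all higher, by little, and the difference did not pass (log2 0.57 ± 0.39 (SE), limma adjusted p = 0.42). With quantile normalization it was smaller (limma, log2 0.06, adjusted p = 0.945).

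Ccl3 (MIP-1 alpha; ENSMUSG00000000982, chromosome 11, 83647844 to 83649355, minus strand), an attractant of monocytes, macrophages and T cells, had the second highest level per length. It was 5365, 22757 and 14591 with saline and 13012, 11909 and 10783 with bleomycin. The bleomycin libraries lay close together, inside the saline range, and the difference did not pass (log2 -0.03 ± 0.44 (SE), limma adjusted p = 0.978, 95% interval -1.03 to 0.97). The interval reaches from a fall to a rise of about the same size, and the sign turned under 5 of 16 alternative settings. Ccl4 (MIP-1 beta; ENSMUSG00000018930, chromosome 11, 83662584 to 83664683, plus strand), the close relative next to it on the opposite strand, was 446, 1268 and 1178 with saline and 1959, 1832 and 1432 with bleomycin. Every bleomycin library was above every saline library, and the mean went from 964 ± 451 to 1741 ± 275 (SD, n = 3). The difference did not pass (log2 0.98 ± 0.36 (SE), limma adjusted p = 0.123, 95% interval 0.16 to 1.80). Saline replicate 1 was the lowest library for both genes.

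Ccl5 (RANTES; ENSMUSG00000035042, chromosome 11, 83525778 to 83530518, minus strand), an attractant of T cells, monocytes and eosinophils that activated T cells and NK cells make in quantity, rose most of the 10. It was 17.7, 35.9 and 53 with saline and 103, 215 and 259 with bleomycin, from 18 to 300 reads. The groups did not overlap, and the rise was 5.4-fold (log2 2.43 ± 0.46 (SE), limma adjusted p = 0.00946, 95% interval 1.38 to 3.49). It did not pass without bleomycin replicate 2 (limma adjusted p = 0.0515) or without bleomycin replicate 5 (limma adjusted p = 0.0533), and it passed under the other 14 of 16 settings. Markers of T and NK cells moved with it. Of 12 tested, 11 rose and 1 fell, the fall being Cd2, which was at 12808 or more in saline and so is not specific to lymphocytes here. Without Cd2, the summed level of the other 17 markers with a row was 56.9, 34.8 and 60.4 with saline and 300.03, 782 and 960.2 with bleomycin. Cd8b1, Nkg7, Gzma, Gzmb and Eomes were at 0 in every saline library. With bleomycin Cd8b1 was 14.4, 47.2 and 37.1 and Nkg7 13.5, 15.4 and 31. Gzma (0, 6.59 and 1.72 with bleomycin), Gzmb (0.898, 4.39 and 12.9) and Eomes (0, 9.89 and 2.59) were too low to be tested. Cd3e, a chain of the T cell receptor complex, was 2.94, 0 and 1.06 with saline and 21.6, 75.8 and 88.8 with bleomycin. Bleomycin replicate 1 was the lowest bleomycin library and replicate 5 the highest both for Ccl5 and for this sum. The marker sums for monocytes and their macrophages and for dendritic cells had that order too, so it is not particular to T and NK cells. Among saline libraries both Ccl5 and the T and NK sum were highest in replicate 3, but Ccl5 was lowest in replicate 1 and the sum in replicate 2. The part of T and NK cells in the Ccl5 rise was not tested. In RNA of a cell pool, fewer or more cells of a type and less or more RNA per cell cannot be told apart.

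Ccl6 (C10; ENSMUSG00000018927, chromosome 11, 83587882 to 83593087, minus strand), which mouse macrophages make without stimulation and in larger amounts under IL-4 and IL-13, was 110591, 141354 and 131427 with saline and 179507, 138239 and 145971 with bleomycin. The highest value was that of bleomycin replicate 1 and the lowest that of saline replicate 1, with the other libraries mixed (log2 0.27 ± 0.17 (SE), limma adjusted p = 0.372, 95% interval -0.11 to 0.66). A rise beyond 1.58-fold lay outside the interval. With quantile normalization its sign turned (limma, log2 -0.22, adjusted p = 0.429).

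Ccl9 (MIP-1 gamma; ENSMUSG00000019122, chromosome 11, 83572919 to 83578636, minus strand), a relative of Ccl6 and its neighbour on the same strand that attracts dendritic cells and monocytes, split the saline libraries. It was 1416, 12398 and 2075 with saline and 8198, 11896 and 9673 with bleomycin. Saline replicates 1 and 3 lay far below every bleomycin library, and saline replicate 2 lay above all of them. Over all 6 libraries the difference did not pass (log2 1.56 ± 0.68 (SE), limma adjusted p = 0.188, 95% interval 0.02 to 3.11). Without saline replicate 2 it did (limma, log2 2.52, adjusted p = 0.000819), and no other single library changed the call when left out. The count tests, which compare means of reads, gave a smaller difference (edgeR, log2 0.89, adjusted p = 0.503). Mmp14, a membrane metalloproteinase chosen after its values were seen, was also highest in replicate 2 among the saline libraries, at 126, 2019.7 and 191 with saline and 3665, 5557 and 6997 with bleomycin. That library had the highest S100a9 and Lcn2 but the lowest Cxcr2 and Mmp8 of the saline group, and the part of its cell make-up in the Ccl9 value was not tested.

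**Figure D3:**
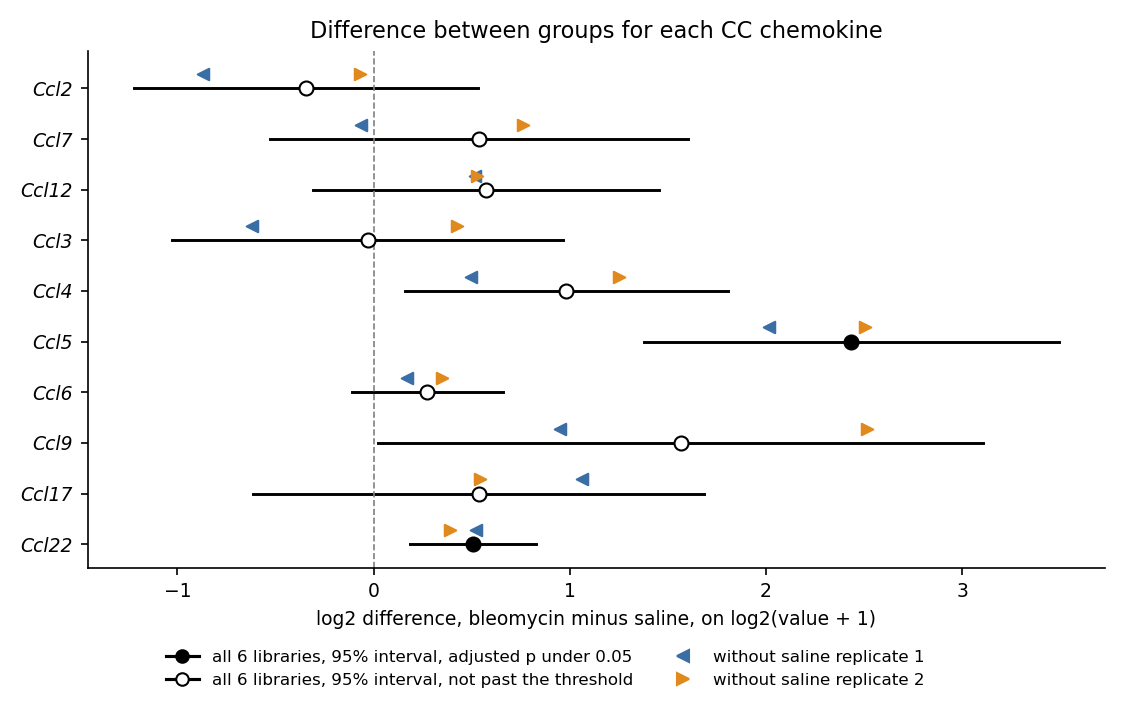
Log2 difference between bleomycin and saline for each CC chemokine (x axis), with its 95% interval in all 6 libraries (circles, filled where the adjusted p was under 0.05) and the value without saline replicate 1 or 2 (triangles). Ccl2 moves left without saline replicate 1 and Ccl9 moves right without saline replicate 2, while Ccl5 stays between 2.01 and 2.51.

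The sequences before the transcript starts of Ccl9, Ccl6 and Ccl3 are shown because these 3 neighbours on the same strand differed in level and in their spread over the saline libraries. Of the 10 members 6 matched the RefSeq table used (GRCm38.p6), all but Ccl2, Ccl4, Ccl5 and Ccl7. The starts are those of RefSeq, which for Ccl3 and Ccl22 differ from the gene bounds given here. The 250 bases before the start are given 5′ to 3′ on the strand of the gene, and capitals mark the letters of the motifs searched for, on both strands: the NF-kB consensus, TTC and GAA with 4 bases between them for STAT factors, TGANTCA for AP-1, GAGGAA for the core of PU.1, the macrophage lineage factor, and TATAAA for the TATA box.
Ccl9 (chr11:83578637-83578886, minus strand): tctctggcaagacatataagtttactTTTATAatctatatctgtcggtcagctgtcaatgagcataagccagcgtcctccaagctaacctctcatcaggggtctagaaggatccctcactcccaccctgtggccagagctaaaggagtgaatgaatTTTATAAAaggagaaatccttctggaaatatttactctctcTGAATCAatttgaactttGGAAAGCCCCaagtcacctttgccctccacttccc
Ccl6 (chr11:83593088-83593337, minus strand): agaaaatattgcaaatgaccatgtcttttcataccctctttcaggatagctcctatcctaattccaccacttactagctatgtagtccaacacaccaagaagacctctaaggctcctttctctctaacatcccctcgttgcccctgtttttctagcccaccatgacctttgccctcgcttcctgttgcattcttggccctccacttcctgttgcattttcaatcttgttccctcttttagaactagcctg
Ccl3 (chr11:83649379-83649628, minus strand): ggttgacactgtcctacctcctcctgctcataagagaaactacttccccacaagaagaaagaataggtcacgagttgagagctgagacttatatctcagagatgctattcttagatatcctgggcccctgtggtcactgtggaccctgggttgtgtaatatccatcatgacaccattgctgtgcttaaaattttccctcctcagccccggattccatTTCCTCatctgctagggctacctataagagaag
The Ccl9 window held an NF-kB match from base -35 to -26, an AP-1 match from -53 to -47 and 3 TATA matches, 2 of which overlap on opposite strands. The Ccl3 window held a PU.1 core from -33 to -28, and the Ccl6 window held none of the 5. Over 32851 RefSeq windows of this length, 7.25% held the NF-kB consensus, 5.85% the STAT, 6.75% the AP-1, 23.3% the PU.1 and 12.4% the TATA motif. A match says only that the letters are there.

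The CCR4 ligands Ccl22 and Ccl17 differed in how they varied. Ccl22 (MDC; ENSMUSG00000031779, chromosome 8, 94745590 to 94751699, plus strand), made by macrophages and dendritic cells, was 817, 681 and 924 with saline and 1097, 1175 and 1145 with bleomycin. The bleomycin libraries lay close together above all saline libraries, from a mean of 807 ± 122 to 1139 ± 39.2 (SD, n = 3). The rise was 1.42-fold (log2 0.51 ± 0.14 (SE), limma adjusted p = 0.0467, 95% interval 0.19 to 0.83). It lay near the threshold and passed under 6 of 16 alternative settings. Its log2 difference was 0.39 to 0.61 over all of them, and its adjusted p over the tests in limma, edgeR and DESeq2 was 0.0164 to 0.286. It was lost without any 1 of the libraries other than saline replicate 3 (limma adjusted p = 0.0626 to 0.203).

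Ccl17 (TARC; ENSMUSG00000031780, chromosome 8, 94810453 to 94812036, plus strand), made mainly by dendritic cells and by macrophages under IL-4, was 736, 357 and 169 with saline and 849.8, 385 and 415 with bleomycin. Replicate 1 was the highest library in both groups, and the groups overlapped (log2 0.53 ± 0.50 (SE), limma adjusted p = 0.585, 95% interval -0.62 to 1.69). Dendritic cell markers other than these 2 genes summed to 812, 390.0 and 795 with saline and 1615, 3585 and 3887 with bleomycin, and 8 of 10 rose, among them Flt3, the receptor that dendritic cells need to develop (log2 4.0 ± 0.46 (SE), limma adjusted p = 0.000919). Zbtb46, a transcription factor of that lineage, was 27.5, 47.8 and 29.7 with saline and 53.9, 59.3 and 75 with bleomycin. It did not pass (log2 0.85 ± 0.31 (SE), limma adjusted p = 0.123), and neither did Clec9a (limma adjusted p = 0.338). Among saline libraries the dendritic cell sum and Ccl17 were both highest in replicate 1, but the sum was lowest in replicate 2 and Ccl17 in replicate 3. With bleomycin the sum was lowest in replicate 1, where Ccl17 was highest. Ccl22 was, like the sum, lowest in saline replicate 2 and in bleomycin replicate 1. It was highest in saline replicate 3 and bleomycin replicate 2, and the sum in saline replicate 1 and bleomycin replicate 5. The part of dendritic cells in either gene was not tested. The 250 bases before each start are shown, by the same source and marks, because these neighbours differed in that way.
Ccl22 (chr8:94745434-94745683, plus strand): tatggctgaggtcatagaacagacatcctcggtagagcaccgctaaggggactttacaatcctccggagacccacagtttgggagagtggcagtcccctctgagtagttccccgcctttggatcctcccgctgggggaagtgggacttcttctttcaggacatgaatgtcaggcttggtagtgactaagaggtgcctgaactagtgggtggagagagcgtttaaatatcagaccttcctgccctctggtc
Ccl17 (chr8:94810203-94810452, plus strand): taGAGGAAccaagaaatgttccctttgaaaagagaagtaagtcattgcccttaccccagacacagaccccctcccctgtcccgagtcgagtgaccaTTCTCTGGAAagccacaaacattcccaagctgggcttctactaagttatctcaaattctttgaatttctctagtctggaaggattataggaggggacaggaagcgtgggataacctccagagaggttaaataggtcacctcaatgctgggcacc
The Ccl17 window held a STAT match from -154 to -145 and a PU.1 core from -248 to -243, and the Ccl22 window held none of the 5.

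Other CC chemokines were scarce. Of 13 listed, 8 have a row, and 2 of these passed the filter, Ccl25 and Ccl27a, neither of which passed the test (log2 -0.00 ± 0.20 (SE), limma adjusted p = 0.998 for Ccl25, log2 -0.39 ± 0.47 (SE), limma adjusted p = 0.687 for Ccl27a). Both share exon positions with another gene, over 204 of 7445 bases for Ccl25 and 8 of 2377 for Ccl27a. The part of these short overlaps in their levels was not tested. Ccl27a also has near-identical copies, so its level is uncertain. Ccl8 (MCP-2), a relative of Ccl2 in the same neighbourhood, had 0 reads in every saline library and 38 over the bleomycin libraries, at least 11.5-fold higher when the saline group as a whole is set at a floor of 3 reads. Its bleomycin values were 1.8, 24.2 and 12.1, and with no filter it passed the test. Ccl1, a ligand of CCR8, had 1 read in saline and 18 in bleomycin libraries, a ratio of 16.3 (95% limits from counting error 2.57 and 679). Ccl24 (eotaxin-2), an attractant of eosinophils, was 17.7, 0 and 1.06 with saline and 0, 5.49 and 8.62 with bleomycin, with no order between the groups.

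Some genes of the CC chemokine receptor list rose. Of the 12 genes considered, 5 were tested, and 3 rose and 0 fell, 60.0% against 13.7% of all genes tested (median log2 1.16). The rises were those of Ccr2, Ccr7 and Ccrl2, and the count rests in part on Ccrl2, a receptor for chemerin. Ccr2, the receptor of Ccl2, Ccl7 and Ccl12, was 222, 172 and 216 with saline and 875, 1437 and 1604 with bleomycin (log2 2.64 ± 0.24 (SE), limma adjusted p = 0.000297). The groups lay far apart, with bleomycin replicate 1 the lowest of its group, and the rise passed under all 16 alternative settings, as did that of Ccr7. Ccr7, by which dendritic and T cells reach lymph nodes, was 88.3, 65.2 and 95.4 with saline and 279, 794 and 830.1 with bleomycin (log2 2.78 ± 0.40 (SE), limma adjusted p = 0.00259), and Ccrl2, a receptor for chemerin that does not signal, was 2289, 5059.7 and 4140.2 with saline and 5938, 10541 and 8567 with bleomycin (log2 1.16 ± 0.30 (SE), limma adjusted p = 0.0371). Ccrl2 lost its call when saline replicate 1 or 3 or bleomycin replicate 2 or 5 was left out (limma adjusted p = 0.0665 to 0.151).

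Ccr1, the receptor shared by Ccl3, Ccl5, Ccl6 and Ccl9, was 5481, 6772 and 7065 with saline and 6749.8, 7526 and 6866 with bleomycin. The groups overlapped and it did not pass (log2 0.14 ± 0.13 (SE), limma adjusted p = 0.572). Ccr4, the receptor of Ccl17 and Ccl22, had 3 reads over the saline and 27 over the bleomycin libraries, a ratio of 8.15 (95% limits from counting error 2.51 and 42). Of the receptors that rose, Ccr2 is also a marker of monocytes and Ccr7 one of dendritic cells, cells whose marker lists had summed levels higher in every bleomycin library than in any saline library. Each of these receptors is itself counted in the sum of its list. Apoe made up most of the monocyte and monocyte-derived sum in every bleomycin library. Ccr7 gave 279, 794 and 830.1 of the dendritic cell sums of 1615, 3585 and 3887 with bleomycin. The part of monocytes and dendritic cells in the rises was not tested.

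**Figure D4:**
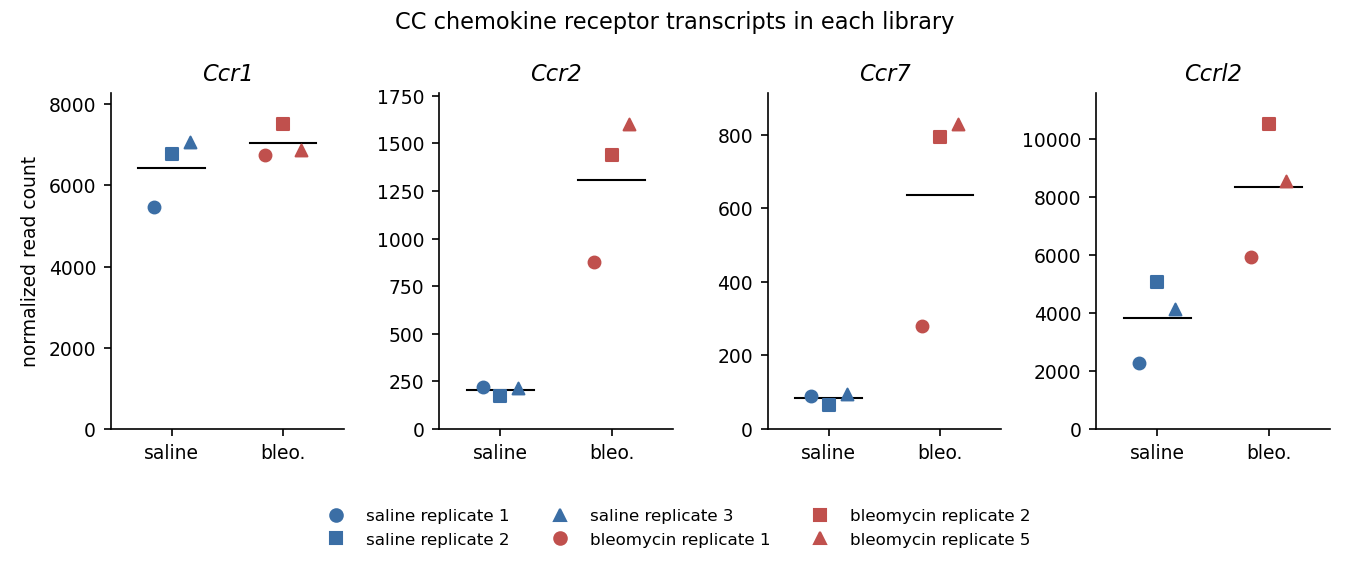
Normalized read counts of 4 genes of the CC chemokine receptor list (y axes, each from 0) in the 3 saline (blue) and 3 bleomycin (red) libraries, with a line at the group mean. Ccr2, Ccr7 and Ccrl2 have groups that do not overlap, whereas those of Ccr1 do.

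Of the cytokines that induce CC chemokines, their receptors and Toll-like receptors, listed together as inducers and their receptors, a minority rose. Of 22 tested, 6 rose and 0 fell, 27.3% against 13.7% (median log2 0.40). Ifngr2, a chain of the interferon gamma receptor, rose most surely (log2 0.73 ± 0.10 (SE), limma adjusted p = 0.0017), followed by the macrophage growth factor Csf1 (log2 1.54 ± 0.34 (SE), limma adjusted p = 0.0192), Il4 (log2 1.13 ± 0.29 (SE), limma adjusted p = 0.0345) and the TNF receptor Tnfrsf1b (log2 0.55 ± 0.15 (SE), limma adjusted p = 0.0435). Without bleomycin replicate 2 or 5 the count was 1, that of Ifngr2. Without saline replicate 3 there were 2 rises, and without saline replicate 1 there was 1 rise, that of Ifngr2, and 1 fall, that of Tnf (limma, log2 -0.97, adjusted p = 0.0084). Csf1 was lost without saline replicate 1 or bleomycin replicate 2 or 5, Il4 without any 1 library, and Tnfrsf1b without any but bleomycin replicate 1 (limma adjusted p = 0.0528 to 0.207 in these fits). The cytokines Tnf and Il1b, chosen after their values were seen, had the order of Ccl3 in saline. Tnf was 4045, 22870.2 and 16664 with saline and 9338, 10512 and 10057 with bleomycin (log2 -0.21 ± 0.54 (SE), limma adjusted p = 0.857), and Il1b was 3209, 18252 and 12425 with saline and 10289.9, 21717 and 18562 with bleomycin (log2 0.84 ± 0.58 (SE), limma adjusted p = 0.431). For both, as for Ccl3 and Ccl2, saline replicate 1 was lowest and saline replicate 2 highest among saline libraries. The part of these cytokines in the chemokine values was not tested.

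Transcription factors and feedback inhibitors of these genes mostly did not pass. Of 27, 3 rose and 0 fell, 11.1% against 13.7% (median log2 0.24). The interferon regulatory factors Irf7 (log2 1.87 ± 0.34 (SE), limma adjusted p = 0.00738) and Irf1 (log2 1.12 ± 0.23 (SE), limma adjusted p = 0.0142) and the cytokine inhibitor Socs3 (log2 2.09 ± 0.58 (SE), limma adjusted p = 0.0454) rose. Irf4, a factor of IL-4 responses, did not pass (log2 1.14 ± 0.39 (SE), limma adjusted p = 0.097), but did without bleomycin replicate 1 (limma adjusted p = 0.0129). Without bleomycin replicate 1 the count was 7, and without bleomycin replicate 2 or 5 it was 1. Irf1 was lost without bleomycin replicate 2 or 5, and Socs3 without these and without saline replicate 1 or 3 (limma adjusted p = 0.0565 to 0.162). Socs3 did not pass in edgeR (adjusted p = 0.0905) or DESeq2 (adjusted p = 0.115). Irf7 passed under all 16 settings. Saline replicate 1 was the lowest saline library for 17 of these 27 genes.

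Most of the tested enzymes that trim chemokines and proteoglycans that hold them rose. Of 13 tested, 8 rose and 0 fell, 61.5% against 13.7% (median log2 2.28). The heparan sulfate proteoglycan Sdc4, which binds chemokines at the cell surface, was 36.3, 30.4 and 46.7 with saline and 942, 1189.9 and 1272 with bleomycin (log2 4.88 ± 0.22 (SE), limma adjusted p = 1.12e-05). The elastase Mmp12, which cleaves several CC chemokines, was 1686, 405 and 533 with saline and 8485, 18769 and 16008 with bleomycin (log2 4.26 ± 0.50 (SE), limma adjusted p = 0.00106), and Mmp2 (log2 3.80 ± 0.47 (SE), limma adjusted p = 0.0013) and the syndecan Sdc1 (log2 5.22 ± 0.67 (SE), limma adjusted p = 0.00152) rose as well. These 4 passed under all 16 settings, and without bleomycin replicate 2 or 5 the count of the list was 5. Mmp8 of this list is also a neutrophil marker.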

How the data were processed

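The deposited table holds a normalized signal per gene and library, gene read counts that the authors had scaled to a common depth. The submitters' processing notes list bcl2fastq 2.18.0.12, STAR 2.5.2b, HTSeq 0.6.0, DESeq2 (version given as 2.1.14.1) and the mouse build mm10, and the strand setting is not given in the sources used here. Values step in whole multiples of 1 read, so whole reads were recovered (all values within 0.05 of a whole read) and give the library totals. Symbols, coordinates and exon lengths came from GENCODE M21.

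The test was that of limma (version 3.58.1, R 4.3.3), with an intensity trend and no covariate, on log2(value + 1) of all 6 libraries. It took in the genes that reached 10 in 3 libraries or more. The fit was tested on simulated data. Alternatives were other pseudocounts, filters and scalings, edgeR 4.0.16 and DESeq2 1.42.0 on the recovered reads, the replicate number as a block and leaving out each library. Sums and ratios per exon length were compared by exact permutation (scipy 1.17.1). Intervals on read ratios cover counting error only. The members and lists were chosen with earlier results of these data known. All 10 members are named, and of each list up to 4 genes with the smallest p, up to 2 that fell, and Ccl8, Ccl24, Ccr1, Ccr2 and Ccr4. Genes named besides these (Ccl1, Tnf, Il1b, Irf4, Mmp8, Mmp14 and single cell type markers) were chosen after their values were seen. Ccl19, Ccl21a, Ccl21b, Ccl21c and Ccl26 and the receptors Ackr1 and Ackr2 were not analysed here, and 1 further receptor is not reported here.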

Additional observations from a re-analysis of the deposited data

How the results depend on the processing

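Pseudocounts of 0.5 and 5, TMM rescaling and edgeR left the 10 genes with 2 calls and every list count within 1.5 times. With no filter on low values, with a minimum of 50, with quantile normalization and without the intensity trend, 1 of the 10 genes was called, Ccl5, and Ccl22 was not. With no filter 1 of the other CC chemokines was called, Ccl8, and the count of receptors went from 3 to 5, with 12 tested. The count for inducers and their receptors went from 6 to 2 with quantile normalization and without the trend and to 11 with DESeq2, and that for transcription factors and feedback inhibitors from 3 to 1 without the trend. Quantile normalization moved the median of all genes from -0.01 to -0.10 on the log2 scale and the calls from 1319 rises and 527 falls to 1114 and 752.

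With 1 library left out, the count of the 10 genes ranged from 0 to 2, that of receptors from 2 to 3, of inducers from 1 to 9, of transcription factors from 1 to 7 and of proteases and carriers from 5 to 9. These fits also test fewer samples, and over all genes they made 502 to 1173 rises. The difference in share of the summed level per length, bleomycin minus saline in percentage points, was -0.52 for the CCR2 ligands (-1.19 to 0.0325 with 1 library left out), -2.9 for Ccl3, Ccl4 and Ccl5 (-7.29 to 0.68), 3.39 for Ccl6 and Ccl9 (-0.0485 to 7.89) and 0.0339 for the CCR4 ligands (-0.27 to 0.591).

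Replicate numbers 1 and 2 occur in both groups. Deviations from the group means correlated at -0.20 across genes between the libraries numbered 1 and at 0.02 between those numbered 2. Between libraries of different numbers the correlations were -0.17 to 0.23. So few pairs cannot show whether libraries of the same number share more than that number. With the replicate number as a block, the calls among the 10 genes went from 2 to 4, Ccl4 (log2 1.33, adjusted p = 0.00399), Ccl5, Ccl7 (log2 1.14, adjusted p = 0.0298) and Ccl9 (log2 1.24, adjusted p = 0.0217) in limma, without Ccl22 (adjusted p = 0.286), and those among transcription factors from 3 to 5. This fit has 1 residual degree of freedom, compares replicates 1 and 2 alone, and called 953 rises and 194 falls over all genes. Ccl12, with 11 to 23 reads a library, and the untested receptors and ligands are limited by depth.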
